A study of Mus musculus with 4 samples.

Results

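The Serpina1 and Serpina3 genes and Serpina6 form part of the serpin cluster on mouse chromosome 12, and their mRNAs were followed in liver after an overdose of acetaminophen (APAP). Members were taken by name: Serpina1a, Serpina1b, Serpina1c, Serpina1d, Serpina1e, Serpina3k, Serpina3m, Serpina3n, Serpina3g and Serpina6. Of these 10 names, 9 had a row of their own among the 27027 gene entries of the count table, and all 9 passed the filter of 20 reads in a pair of libraries. Serpina1d had no row of its own, because its identifier was joined to the Serpina1b entry.

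Hepatic RNA came from C57BL/6J wild-type mice, all male, 9 to 12 weeks old and fasted overnight before injection. Control mice received 0.9% NaCl and treated mice received APAP at 300 mg/kg, each by a single intraperitoneal injection, and livers were taken after 24 h or 48 h. RNA of each group was pooled before sequencing, from 6 mice in each control pool and 7 mice in each APAP pool, so that every group was 1 library. Libraries were made by massive analysis of cDNA ends (MACE), a 3′mRNA sequencing method that reads the end of each polyadenylated transcript. With 1 library per group there was no replicate check and no test across samples, and the 95% exact intervals given below cover counting error only, not the spread between mice. A fold is the APAP level over the level in the control pool of the same time, after division by DESeq2 size factors.

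The libraries held 4859661 to 5698778 reads. Hepatocyte markers were present in every library at a summed 98600 to 116700 RPM (the reads of a gene scaled to a common library total), and of the 11 with an entry 1 was past 2-fold at 24 h, higher, and none at 48 h. Markers of pericentral hepatocytes, the cells around the central vein, were at least 2-fold lower in 9 of 11 at 24 h and in 10 of 12 at 48 h. Myeloid markers were at least 2-fold higher in 4 of 10 at 24 h and in 6 of 11 at 48 h. Over all entries tested, 6.37% and 6.05% were at least 2-fold higher and 5.47% and 5.58% lower at these times. Scaling by library totals instead of size factors moved the median log2 fold over all genes from 0.01 to 0.20 at 24 h and from -0.01 to 0.26 at 48 h, so that folds close to 1 depend on the scaling.

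Serpins inhibit proteases by a suicide mechanism. The target protease cuts an exposed stretch near the carboxyl end, the reactive centre loop, and is then trapped by the refolding serpin, so the letters of the loop decide which protease is caught. Serpina1 genes encode alpha-1-antitrypsin, the main plasma inhibitor of neutrophil elastase and a major secretory product of hepatocytes. Serpina3 genes are the mouse relatives of alpha-1-antichymotrypsin, several of which are acute-phase genes, whereas Serpina6 encodes corticosteroid-binding globulin, which carries glucocorticoids in plasma and inhibits no protease.

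The loop coding sequences are shown first because they are where the paralogs differ most in function and because, in the Serpina1 genes, they lie in the part of the transcript that 3′ sequencing reads. They were read from the GENCODE M21 transcripts (GRCm38, the build also called mm10), each within the last coding exon. In the Serpina1 stretches the capitals mark the codon before the bond that the protease cuts, which is ATG in Serpina1a and Serpina1b, TAT in Serpina1c and Serpina1d, and TTG in Serpina1e. The places are chr12:103853750-103853830 for Serpina1a, chr12:103728317-103728397 for Serpina1b, chr12:103895087-103895167 for Serpina1c, chr12:103763755-103763835 for Serpina1d and chr12:103947093-103947173 for Serpina1e, all on the minus strand.
Serpina1a: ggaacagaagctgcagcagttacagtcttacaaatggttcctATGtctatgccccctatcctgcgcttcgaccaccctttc
Serpina1b: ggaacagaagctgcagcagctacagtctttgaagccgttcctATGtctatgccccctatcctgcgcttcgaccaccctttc
Serpina1c: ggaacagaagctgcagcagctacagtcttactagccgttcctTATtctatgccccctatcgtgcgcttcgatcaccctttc
Serpina1d: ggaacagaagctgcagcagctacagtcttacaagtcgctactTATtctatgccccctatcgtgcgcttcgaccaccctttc
Serpina1e: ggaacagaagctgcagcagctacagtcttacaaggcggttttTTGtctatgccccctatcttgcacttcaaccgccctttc

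In the 10 pairs of Serpina1 genes the loop was 85.2% to 93.8% identical, with 5 to 12 mismatches over 81 bases, while the rest of the coding sequence was 91.7% to 97.2% identical. Only 86 or 87 bases follow the stop codon in these transcripts, so the last 300 bases held 213 or 214 coding bases, the loop among them. How far reads can be told apart depends on their length. Of the 50-base windows in the last 300 bases, 43.4% occurred in no other annotated gene for Serpina1a, 62.2% for Serpina1b, 84.1% for Serpina1c, 55.4% for Serpina1d and 81.7% for Serpina1e. With 100-base windows the share was 81.6% for Serpina1a and 100% for the other four. Serpina1a also shared 214 of those bases at 99.5% identity with the pseudogene Gm8893. The read length and the handling of reads that map to several places are not given in the sources used here, so the split of reads among Serpina1 paralogs is uncertain, most of all for Serpina1a.

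For the Serpina3 genes the capitals mark the variable part of the loop, between a conserved hinge and the conserved codons that follow. The stretches lie at chr12:104345269-104345352 for Serpina3k, chr12:104393769-104393858 for Serpina3m, chr12:104413448-104413537 for Serpina3n and chr12:104241072-104241161 for Serpina3g, all on the plus strand.
Serpina3k: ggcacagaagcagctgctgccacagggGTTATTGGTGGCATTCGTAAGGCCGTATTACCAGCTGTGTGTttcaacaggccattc
Serpina3m: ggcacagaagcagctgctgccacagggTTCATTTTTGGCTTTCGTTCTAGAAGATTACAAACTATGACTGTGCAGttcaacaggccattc
Serpina3n: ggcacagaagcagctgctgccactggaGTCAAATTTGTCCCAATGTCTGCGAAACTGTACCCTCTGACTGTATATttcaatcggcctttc
Serpina3g: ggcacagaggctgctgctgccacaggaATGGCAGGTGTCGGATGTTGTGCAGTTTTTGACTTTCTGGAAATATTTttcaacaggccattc

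Among Serpina3k, Serpina3m and Serpina3n the loop was 67.8% to 75.6% identical against 83.7% to 92.2% in the rest of the coding sequence. Their untranslated ends are longer and less alike, at 48.8% to 71.2% identity over the last 300 bases, and every 50-base window there was unique to its gene. Reads of these 3 genes in that window could therefore be told apart by sequence already at 50 bases.

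The entries followed the gene models rather than the paralogs. The annotated span of Serpina1b (chr12:103728156-103830373) covers Serpina1d (chr12:103763594-103773592) and the pseudogenes Gm17042 and Gm8893, and the Serpina1b entry joined the identifiers of all 4. The span of Serpina3m (chr12:104338486-104394257) likewise covers the whole of Serpina3k (chr12:104338486-104346144), and the entry named Serpina3k carried both identifiers, whereas the Serpina3m entry carried its own alone. Across the table, 3100 of 3157 pairs of joined identifiers (98.2%) had overlapping spans, all of them on the same strand. Serpina1b below therefore stands for Serpina1b and Serpina1d together, and Serpina3k for reads at the Serpina3k locus.

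Of the 9 entries, 2 were at least 2-fold higher at 24 h, Serpina3m and Serpina3n, beside 6.37% of the 12196 entries tested. Serpina6 was at least 2-fold lower, beside 5.47% of all entries, and also at least 5-fold lower, beside 0.631%. At 48 h, 2 of 9 were at least 2-fold higher, Serpina3m and Serpina3g, beside 6.05% of the 12218 entries tested, and Serpina6 was again lower, beside 5.58%. No member was at least 5-fold lower at 48 h, where 0.794% of entries were. The median log2 fold over the 9 entries was 0.18 at 24 h and 0.29 at 48 h, beside 0.01 and -0.01 over all entries tested.

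The control pools differed from each other as well. None of the 9 entries was at least 2-fold higher in the 48 h control pool than in the 24 h control pool, beside 2.42% of 11715 entries, and 1 was at least 2-fold lower, Serpina3g, beside 1.97%. The 48 h over 24 h ratio in controls ran from 0.305 for Serpina3g through 0.510 for Serpina3n and 0.711 for Serpina1e to 1.01 for Serpina6. Mice that received no APAP thus differed by more than counting error for several of these genes, and a fold smaller than this difference cannot be assigned to APAP from these pools.

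**Figure D1:**
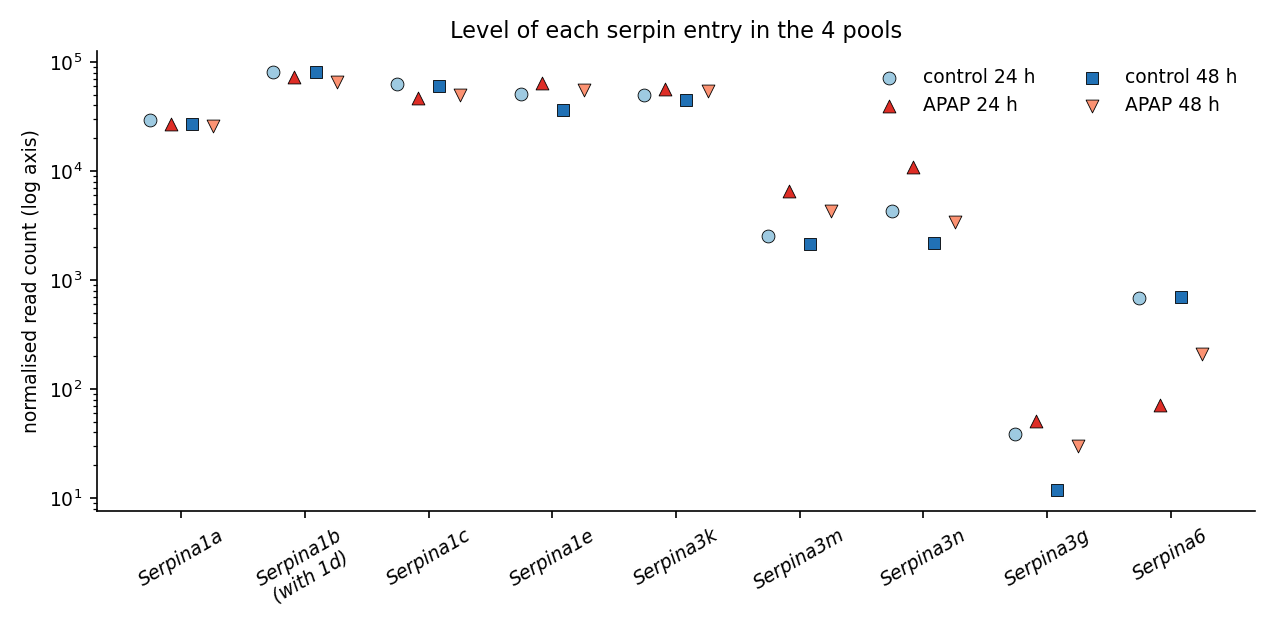
Normalised read count of each serpin entry (reads divided by the size factor, log axis) in the 4 pools, with circles and squares for the control pools at 24 h and 48 h and triangles for the APAP pools. The Serpina1 entries and Serpina3k form the highest band in every pool, Serpina3m and Serpina3n lie below them with both APAP pools above the control pool of the same time, and Serpina6 is the only entry with both APAP pools well below both control pools.

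Alpha-1-antitrypsin mRNA was among the most abundant of the liver in every pool. The 4 Serpina1 entries together held 196860 reads in the 24 h control pool, 247441 in the 24 h APAP pool, 191469 in the 48 h control pool and 209365 in the 48 h APAP pool. This was 4.05%, 4.34%, 3.69% and 4.24% of all reads in the same order. At 24 h the fold of the sum was 0.942 (0.936 to 0.947), and at 48 h it was 0.956 (0.950 to 0.962). These turned to 1.07 and 1.15 when library totals were used in place of size factors. The summed alpha-1-antitrypsin level was therefore within 1.2-fold of the control level under either scaling, and its direction was not settled. Fewer cells of a type and less RNA per cell cannot be told apart in such bulk samples.

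Within that sum the paralogs moved apart. Serpina1e held 44876 reads in the 24 h control pool, 74859 in the 24 h APAP pool, 33806 in the 48 h control pool and 58693 in the 48 h APAP pool. Both APAP pools exceeded both control pools, with a fold of 1.25 (1.24 to 1.26) at 24 h. The 48 h fold was 1.52 (1.498 to 1.54). Serpina1e was 1.41 times lower in the 48 h than in the 24 h control pool, a larger difference than the 24 h fold. Against the control pool of the other time the folds were 1.76 at 24 h and 1.08 at 48 h. By read count it ranked 18 and 28 among all entries of the 24 h and 48 h control pools, against 6 and 10 in the APAP pools of those times.

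Under size factors Serpina1c went the other way. It held 54827, 54851, 56276 and 52913 reads in the 24 h control, 24 h APAP, 48 h control and 48 h APAP pools. Normalised levels in both APAP pools lay below both control pools, with a fold of 0.750 (0.741 to 0.758) at 24 h. The 48 h fold was 0.822 (0.813 to 0.832). Under library totals these folds were 0.853 and 0.989 (0.977 to 1.0), so the 48 h difference depends on the scaling. The Serpina1b entry held 71519, 85824, 76157 and 69864 reads in the same order and gave folds of 0.899 and 0.802. Its 48 h fold moved to 0.965 under library totals. Serpina1a, with 25638, 31907, 25230 and 27895 reads, gave folds of 0.932 and 0.967, and its direction turned under library totals, as did that of Serpina1b at 24 h.

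Shares of the Serpina1 reads do not depend on any scaling between libraries. Serpina1e made up 22.8% of them in the 24 h control pool and 30.3% in the 24 h APAP pool, and 17.7% and 28.03% at 48 h. Serpina1c went from 27.9% to 22.2% at 24 h and from 29.4% to 25.3% at 48 h. The Serpina1b entry, the largest, went from 36.3% to 34.7% at 24 h and from 39.8% to 33.4% at 48 h, so the gain of Serpina1e stood against lower shares of both. Serpina1a stayed between 12.9% and 13.3% in all 4 pools. The ratio of Serpina1e to Serpina1c reads was 0.819 and 1.37 in the control and APAP pools at 24 h and 0.601 and 1.11 at 48 h, so Serpina1c, with the loop codon TAT, was the more abundant of the pair in control liver and Serpina1e, with TTG, after APAP. The control pools themselves differed in this ratio, by less than either APAP pool differed from its own control.

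**Figure D2:**
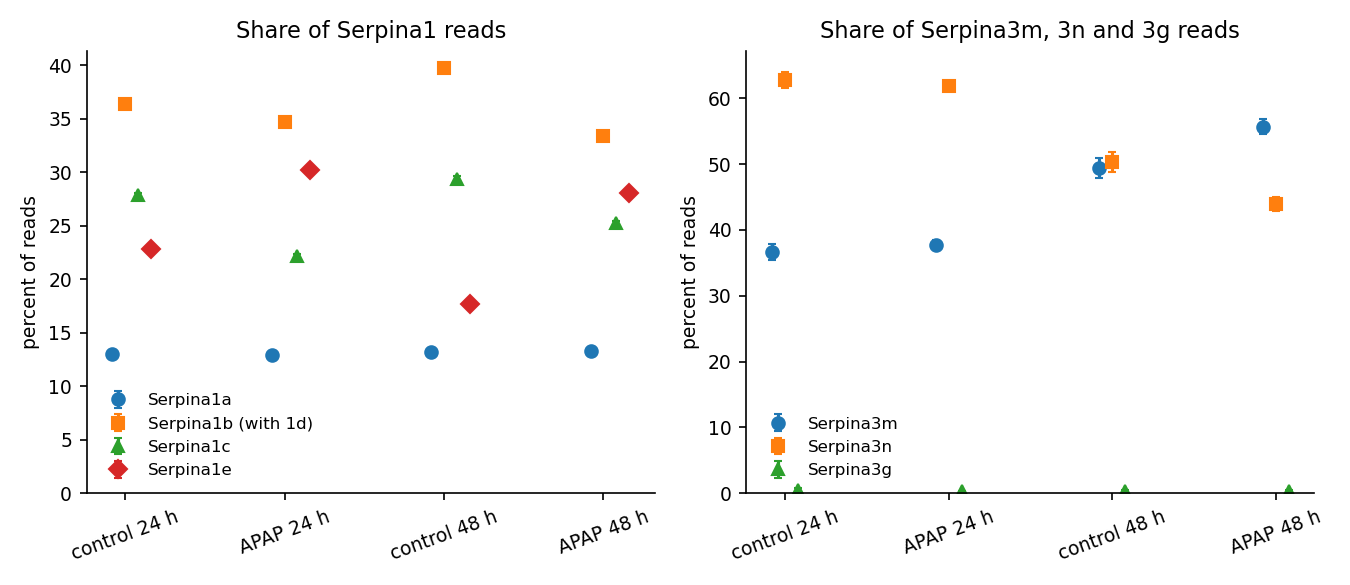
Share of each entry among the Serpina1 reads (left) and among the Serpina3m, Serpina3n and Serpina3g reads (right), in percent of reads, for the 4 pools in the order given on the axis. Bars are 95% exact binomial intervals, mostly smaller than the points, and the Serpina1e share (diamonds) is above the Serpina1c share (triangles) in both APAP pools and below it in both control pools.

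The Serpina1 promoters are shown to let the letters next to the start of the paralogs be compared. RefSeq promoter sequences (GRCm38.p6, from 250 bases before to 50 after the start) were at hand for 7 of the 10 members. The letters GTTAAT, a motif of liver promoters, were searched on both strands and occurred in all 5 Serpina1 promoters, beside 7.20% of 27025 promoters of the same length. It stands in capitals in the 80 bases around it, at chr12:103863601-103863680, chr12:103738176-103738255, chr12:103904938-103905017, chr12:103773610-103773689 and chr12:103956936-103957015 from Serpina1a to Serpina1e, all on the minus strand.
Serpina1a promoter: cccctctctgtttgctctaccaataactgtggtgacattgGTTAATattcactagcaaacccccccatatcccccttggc
Serpina1b promoter: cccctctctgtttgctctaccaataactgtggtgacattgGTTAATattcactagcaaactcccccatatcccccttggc
Serpina1c promoter: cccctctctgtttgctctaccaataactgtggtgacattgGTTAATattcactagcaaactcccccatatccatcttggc
Serpina1d promoter: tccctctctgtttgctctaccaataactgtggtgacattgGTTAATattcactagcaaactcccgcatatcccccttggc
Serpina1e promoter: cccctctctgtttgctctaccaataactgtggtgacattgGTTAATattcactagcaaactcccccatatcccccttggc

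Compared with Serpina1e, these 80 bases held 0 mismatches in Serpina1b, 1 in Serpina1a, 2 in Serpina1c and 2 in Serpina1d. The Serpina1 promoters are thus close copies over this stretch, so their GTTAAT matches are not independent of each other. No link of these letters to the folds was tested, and the fold of the Serpina1b entry, which joins Serpina1d and 2 pseudogenes, cannot be assigned to a single promoter. The distance to the annotated start differed, with the motif beginning 78 bases before it in Serpina1e and 16 to 27 bases before it in the others. A C/EBP motif, TTGCNNAA, matched 4 of the 7 member promoters, those of Serpina1a, Serpina1b, Serpina1d and Serpina1e, beside 10.8% of all promoters. The match begins 161, 149 and 211 bases before the start in Serpina1b, Serpina1d and Serpina1e, but 24 bases after it in Serpina1a.

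Serpina3k, a hepatocyte serpin of plasma, was the most abundant Serpina3 entry. It held 43926 reads in the 24 h control pool, 66574 in the 24 h APAP pool, 41746 in the 48 h control pool and 58368 in the 48 h APAP pool. Both APAP pools were above both control pools by a small margin, with folds of 1.14 (1.12 to 1.15) and 1.22 (1.21 to 1.24). It made up 87.9% of the Serpina3 member reads in the 24 h control pool but 76.5% in the 24 h APAP pool, as Serpina3m and Serpina3n had larger folds.

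Serpina3m, whose 3′ end lies downstream of Serpina3k on the same strand, was higher after APAP at both times. It held 2217, 7731, 2015 and 4627 reads in the 24 h control, 24 h APAP, 48 h control and 48 h APAP pools. At 24 h its fold was 2.61 (2.49 to 2.74). The 48 h fold was 2.01 (1.91 to 2.12), with an interval that spans 2. Against the control pool of the other time the 48 h value was 1.72-fold, still higher but under 2.

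Serpina3n, an acute-phase inhibitor of granzyme B and leukocyte elastase, showed the largest 24 h gain in normalised reads among the Serpina3m, Serpina3n and Serpina3g entries. It held 3801 reads in the 24 h control pool, 12675 in the 24 h APAP pool, 2055 in the 48 h control pool and 3647 in the 48 h APAP pool. The 24 h APAP pool was above all others, with a fold of 2.50 (2.41 to 2.59). At 48 h the fold was 1.55 (1.47 to 1.64), 0.621 times the 24 h fold (0.582 to 0.663). That 48 h fold rests on its control pool: Serpina3n was 1.961 times lower in the 48 h than in the 24 h control pool, and against the 24 h control pool the 48 h APAP value would be 0.791. The 24 h fold would be 4.9 against the 48 h control pool, higher as before.

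The ratio of Serpina3n to Serpina3m reads was 1.71 and 1.64 in the control and APAP pools at 24 h and 1.02 and 0.788 at 48 h. The neighbours thus kept a like ratio between control and APAP at 24 h, and the ratio differed more between the times than between the treatments. Acute-phase genes also differed between the control pools, with 4 of 20 at least 2-fold lower at 48 h, beside 1.97% of all entries. Among them was Lcn2, lipocalin 2, with 3710 reads in the 24 h and 673 in the 48 h control pool. Its part in the Serpina3n values was not tested.

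Serpina3g, known as an intracellular inhibitor of lysosomal cathepsins in leukocytes, was near the limit of detection, with 34, 60, 11 and 32 reads in the 24 h control, 24 h APAP, 48 h control and 48 h APAP pools. Its fold was 1.32 (0.854 to 2.08) at 24 h, a difference not detectable at this depth, and 2.54 (1.25 to 5.59) at 48 h. The 24 h fold also rests on its control pool, being 4.33 (2.26 to 9.14) against the 48 h control pool and 2.06 (1.38 to 3.1) against both. The 48 h control pool with 11 reads was the low value, and the 48 h APAP level was 0.776 times that of the 24 h control pool. Neutrophil markers, 10 of which had an entry, went from a summed 3.29 to 45.5 RPM at 24 h and from 3.66 to 37.3 at 48 h, with all 3 that could be tested at least 2-fold higher at each time. These sums rest mostly on S100a8, with 5, 139, 10 and 106 reads in the same order, and S100a9, with 6, 75, 1 and 38. Elane, Camp, Ltf and Ngp held 3 reads or fewer in every library, so the sums do not show that the list as a whole was higher. Myeloid markers went from 153 to 251 and from 153 to 397 RPM, and their part in the Serpina3g values was not tested.

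Of the other motifs searched on both strands, the STAT motif TTCNNNGAA (8.47% of promoters) and the letters CTGGGA of an interleukin-6 response element (31.5%) each matched 1 of the 7 member promoters, that of Serpina3g. There the matches begin 33 and 32 bases before the start and overlap. The Serpina3n promoter window held none of the 4 motifs, which says only that these letters are not in it.

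Serpina6 was the member with the largest difference, and it was lower. It held 604 reads in the 24 h control pool, 84 in the 24 h APAP pool, 646 in the 48 h control pool and 222 in the 48 h APAP pool. The control pools were alike, with a 48 h over 24 h ratio of 1.01 (0.901 to 1.13), and both APAP pools lay far below them. Corticosteroid-binding globulin mRNA was 9.60 times lower (7.63 to 12.2) at 24 h and 3.33 times lower (2.85 to 3.89) at 48 h. Across the scalings tried these values ran from 8.43 to 9.60 and from 2.77 to 3.33.

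The 48 h fold was 2.88 times the 24 h fold (2.18 to 3.84), so the Serpina6 level in the 48 h APAP pool was closer to control than in the 24 h APAP pool. In rank by reads it stood at 871 and 887 in the control pools, at 5603 in the 24 h APAP pool and at 2401 in the 48 h APAP pool. Pericentral markers were lower in the same pools, from a summed 3746 to 1675 RPM at 24 h and from 4165 to 1498 at 48 h, with none of the 12 at 0 in all libraries. Glul, glutamine synthetase of the hepatocytes next to the central vein, held 3046, 436, 3324 and 323 reads in the 24 h control, 24 h APAP, 48 h control and 48 h APAP pools and was 9.32 and 11.8 times lower at 24 h and 48 h. Of the 11 pericentral markers tested at both times, 7 were farther from control at 48 h than at 24 h, Glul among them, and 4 were closer, as Serpina6 was. Of these 4, Cyp1a2, a cytochrome P450, was 4.51 and 3.16 times lower and Rgn, regucalcin, 4.33 and 2.78 times lower, both chosen after their values were seen. The part of pericentral cells in the Serpina6 values was not tested.

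**Figure D3:**
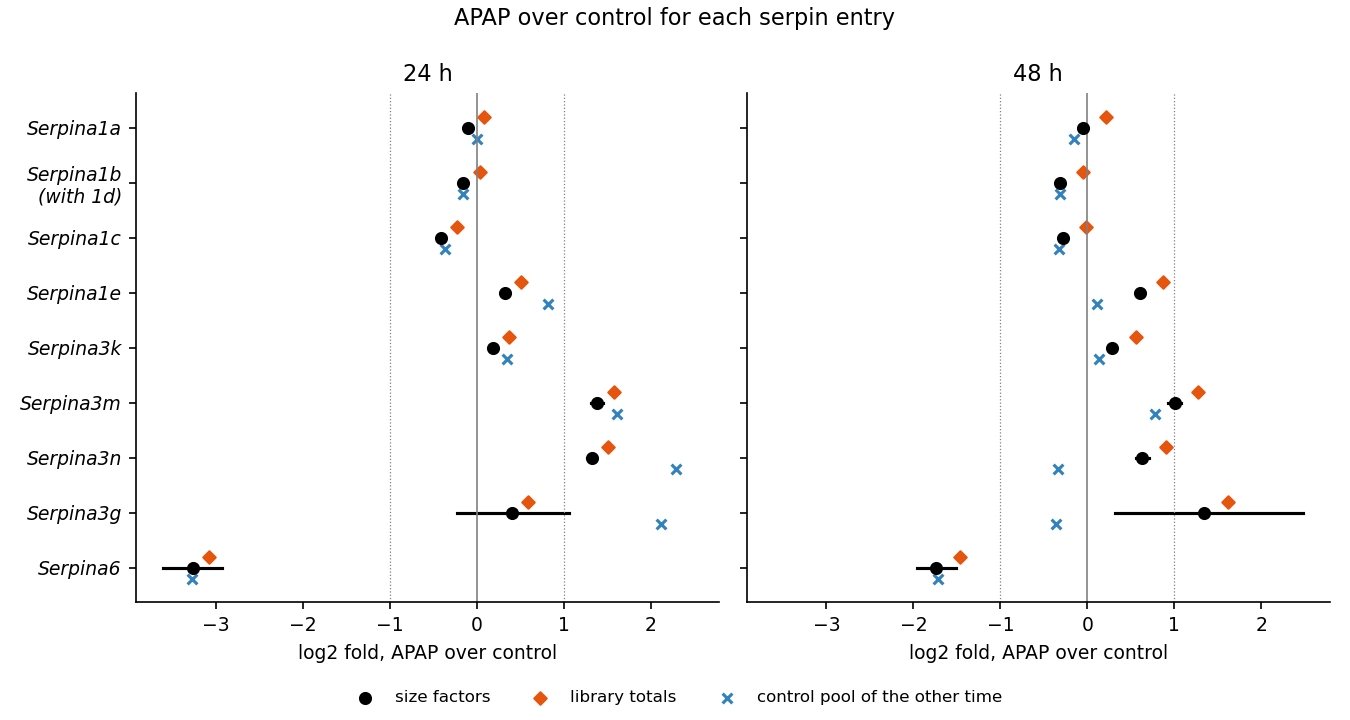
Log2 fold of APAP over control for each entry at 24 h (left) and 48 h (right), as black points with 95% exact intervals for counting error, with the same fold scaled by library totals (orange diamonds) and against the control pool of the other time (blue crosses). Dotted lines mark 2-fold; Serpina6 is at -3.26 and -1.73 and stays below -1 in all 3, while Serpina3n and Serpina3g at 48 h cross 0 when the other control pool is used.

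Genes of glucocorticoid action are given beside Serpina6 as the hormone it carries acts through them. Of 12 genes in that list, 5 were at least 2-fold higher and 1 lower at 24 h, and 4 were higher and 1 lower at 48 h, with a median log2 fold of 0.24 and 0.16. Over all entries 6.37% and 6.05% were higher and 5.47% and 5.58% lower at these times. Fkbp5, a co-chaperone of the glucocorticoid receptor and one of its targets, held 70, 433, 84 and 300 reads in the 24 h control, 24 h APAP, 48 h control and 48 h APAP pools, folds of 4.63 and 3.12. Pck1, the gluconeogenic enzyme phosphoenolpyruvate carboxykinase, held 710, 3853, 904 and 3417 reads, folds of 4.07 and 3.31. Per1, a clock gene that glucocorticoids induce, and Zbtb16 were also higher, at 3.996-fold and 2.92-fold at 24 h.

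Not every gene of the list moved that way. Srd5a1, a steroid 5-alpha-reductase, held 260, 104, 400 and 66 reads and was 3.34 and 6.93 times lower. Nr3c1, the glucocorticoid receptor itself, gave 195, 221, 229 and 208 reads, folds of 0.849 and 0.794. Tat, Tsc22d3 and Sgk1 of the same list were not 2-fold higher or lower at either time. Their folds were 0.859, 1.29 and 1.08 at 24 h and 1.07, 1.135 and 1.83 at 48 h. Among 8 other carriers of hormones and lipids in plasma with an entry, none was 2-fold higher or lower at either time, with medians of -0.28 and 0.04. Serpina7, thyroxine-binding globulin and the other hormone carrier of the serpin family, held 33, 71, 31 and 35 reads, folds of 1.61 and 0.987.

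The rest of the Serpina family gave a mixed picture. Of 16 further Serpina genes listed, 14 had an entry and 7 could be tested. At 24 h 1 was at least 2-fold higher, beside 6.37% of all entries, and at 48 h 3 were lower, beside 5.58%. Serpina12, vaspin, held 687, 529, 878 and 147 reads in the 24 h control, 24 h APAP, 48 h control and 48 h APAP pools and was 1.73 times lower at 24 h and 6.83 times lower (5.73 to 8.19) at 48 h. Unlike Serpina6 it was farther from control at 48 h than at 24 h. Serpina10, the protein Z-dependent protease inhibitor, held 846, 1612, 917 and 906 reads, folds of 1.43 and 0.864. Serpina11, with 473, 703, 443 and 753 reads, gave 1.11 and 1.49, and the small counts of Serpina3f (7, 22, 18 and 9) and Serpina4-ps1 (22, 38, 42 and 17) made up the other entries past 2-fold. Serpina3f was 2.425 times higher in the 48 h than in the 24 h control pool.

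**Figure D4:**
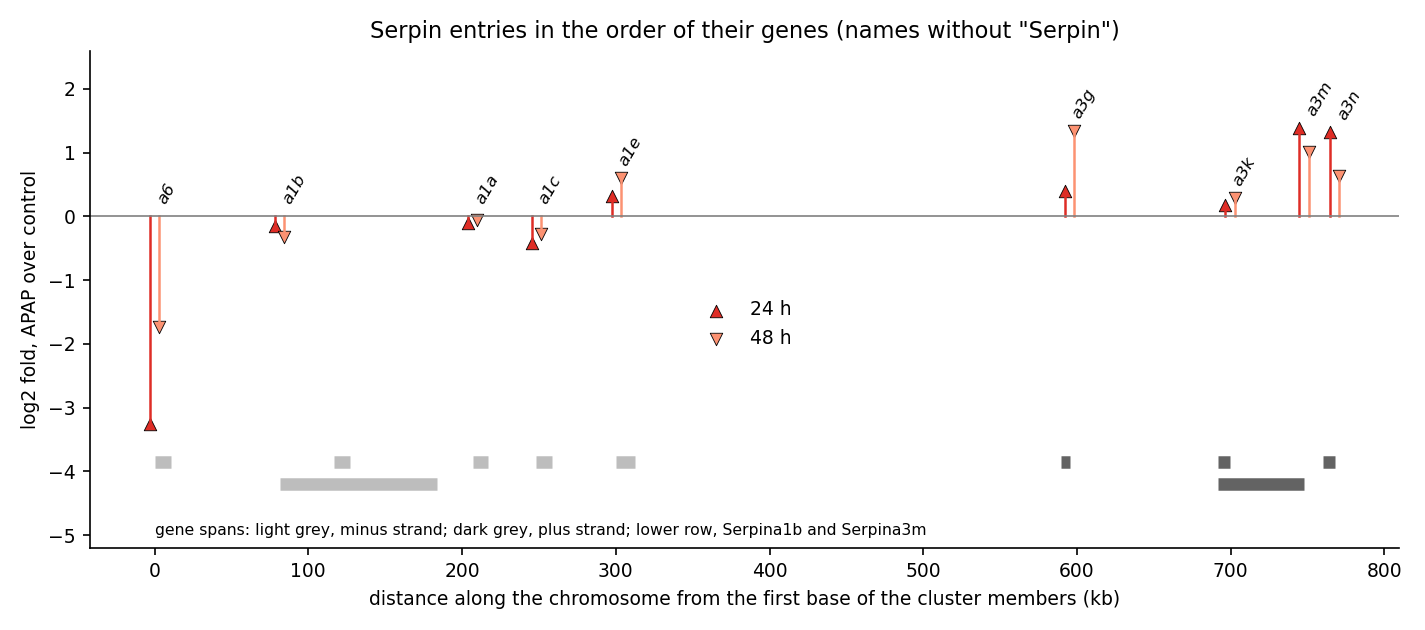
Log2 fold of APAP over control at 24 h (dark triangles) and 48 h (light triangles) for each entry, placed at the 3′ end of its gene along the chromosome in kb from the first base of Serpina6. Grey blocks are the gene spans with Serpina1b and Serpina3m in the lower row; Serpina6 and the Serpina1 genes are on the minus strand, the Serpina3 genes on the plus strand, and the negative values at the Serpina6 end stand against positive values at the Serpina3m and Serpina3n end.

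Of 20 serpins of other clades listed, 18 had an entry and 10 could be tested. At 24 h 1 was at least 2-fold higher, near the 6.37% of all entries, and at 48 h 3 were lower, beside 5.58%. Serpinf1, pigment epithelium-derived factor, held 3226, 3000, 4142 and 2062 reads and was 1.44 and 2.30 times lower. Antithrombin, encoded by Serpinc1, held 7874, 6950, 10198 and 7061 reads, 1.51 and 1.65 times lower. Serpine2 (27, 20, 37 and 18 reads) and Serpinb6b (4, 8, 19 and 4 reads) were the other entries more than 2-fold lower at 48 h. For Serpinb6b the 48 h control pool was the high value, and its 48 h APAP count equalled its 24 h control count.

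Secreted and lysosomal proteases, only some of which these inhibitors act on, were compared as mRNA, which does not give the amount of protease present. Of 15 secreted and lysosomal proteases, 14 had an entry and 6 could be tested. Elane, the neutrophil elastase that alpha-1-antitrypsin inhibits, gave 3 reads in the 24 h APAP pool and 0 in the others, and Ctsg, cathepsin G, gave 0 in all 4, which allows up to 0.617 RPM in a library. Prtn3, proteinase 3 of neutrophils, held 9, 130, 27 and 43 reads, with a 24 h fold of 10.8 (5.53 to 24.2) and a 48 h fold of 1.39 (0.841 to 2.34). The lysosomal cathepsin gene Ctsl held 1875, 4068, 1970 and 2497 reads, folds of 1.63 and 1.11, and Ctss of macrophages 65, 115, 79 and 232, folds of 1.33 and 2.57.

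Other inhibitors of plasma proteases were a further point of comparison. At 24 h 2 of 16 were at least 2-fold higher, beside 6.37% of all entries, and at 48 h 3 of 16, beside 6.05%. None was lower, beside 5.47% and 5.58%. Itih3, a heavy chain of inter-alpha-trypsin inhibitor, held 4228, 7494, 3434 and 9915 reads, folds of 1.33 and 2.53. Slpi, secretory leukocyte peptidase inhibitor and like alpha-1-antitrypsin an inhibitor of neutrophil elastase, held 15, 50, 35 and 125 reads, folds of 2.50 and 3.12. Timp1, which inhibits matrix metalloproteinases, held 3, 26, 4 and 51 reads.

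Interleukin-6 type cytokines, C/EBP factors and liver-enriched factors govern these serpins in hepatocytes, and 23 of 24 such regulators had an entry. At 24 h, 7 of 21 tested were at least 2-fold higher and 1 lower, beside 6.37% and 5.47% of all entries. At 48 h 3 of 20 were higher, beside 6.05%. Socs3, the feedback inhibitor of STAT3 signalling, held 11, 138, 17 and 49 reads in the 24 h control, 24 h APAP, 48 h control and 48 h APAP pools, folds of 9.40 (5.09 to 19.3) and 2.52 (1.43 to 4.67). Cebpd, which encodes the acute-phase factor C/EBP delta, held 11, 141, 21 and 73 reads, folds of 9.60 and 3.04. Il1r1, the interleukin-1 receptor, held 44, 271, 62 and 132 reads, folds of 4.61 and 1.86. Each of these had its larger fold at 24 h, but others of the list did not, such as Il6ra, the interleukin-6 receptor, with 74, 140, 46 and 130 reads and folds of 1.42 and 2.47, named after its values were seen.

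Acute-phase proteins, to which the Serpina3 genes are commonly counted, were at least 2-fold higher in 7 of 20 at 24 h and 5 of 20 at 48 h, and lower in 1 and 2. Over all entries 6.37% and 6.05% were higher and 5.47% and 5.58% lower. Apcs, serum amyloid P, held 1293, 4769, 822 and 3802 reads, folds of 2.76 and 4.05. Lcn2 held 3710, 11781, 673 and 3474 reads, folds of 2.38 and 4.51. Its 48 h fold rests on its control pool, as Lcn2 was 5.845 times lower in the 48 h than in the 24 h control pool. The 48 h APAP count was below the 24 h control count. Saa3, a serum amyloid A, was the entry lower at 24 h, with 1487, 195, 168 and 147 reads, its 24 h control pool being the high value. The entries at least 2-fold lower at 48 h were Saa1 and Saa2. Saa1 held 18786, 15194, 11226 and 4557 reads and was 1.65 and 2.82 times lower. Saa2 held 20533, 16005, 7838 and 3009 reads and was 1.71 and 2.98 times lower. In the 48 h control pool they were 1.77 and 2.78 times lower than in the 24 h control pool. Among 20 genes of serpin folding and export from the endoplasmic reticulum, 2 were past 2-fold at 24 h, both higher, beside 6.37% of all entries. Derl3 was 1 of them and the only 1 at 48 h, beside 6.05%. It held 58, 283, 5 and 25 reads, folds of 3.66 and 4.37. The 48 h fold of Derl3 rests on a control pool with 5 reads, 12.3 times lower than the 24 h control pool. Its 48 h APAP count was below its 24 h control count.

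The genes with the most similar pair of log2 folds at 24 h and 48 h were listed for Serpina3n, Serpina6 and the Serpina1 sum, over up to 9476 genes with at least 100 reads in the 4 libraries. Nearest to Serpina3n were Nnmt, nicotinamide N-methyltransferase, Trappc10 and Pold4, at Euclidean distances of 0.043 to 0.067 on the log2 scale. Nnmt held 456, 1508, 909 and 1660 reads in the 24 h control, 24 h APAP, 48 h control and 48 h APAP pools, but unlike Serpina3n its 48 h control pool was the higher of the controls. Nearest to Serpina6 were Gm26608, Cyp2c38 and Inmt, at larger distances of 0.492 to 0.574. Gm26608 and Cyp2c38 held 20 and 22 reads in the 24 h APAP pool, so their 24 h folds carry a wide counting error. Inmt, indolethylamine N-methyltransferase, held 3244, 536, 5089 and 1222 reads and was 8.08 and 4.76 times lower. Nearest to the Serpina1 sum were Cyp4b1, Gm10240 and Dapk1, all with log2 folds between -0.10 and -0.05.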

How the data were processed

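MACE libraries were made from pooled hepatic RNA of 4 groups. Per the study's methods, duplicate reads were removed by molecular identifiers, low-quality bases with cutadapt and poly(A) tails by a script, and reads were mapped on mm10 and counted with HTSeq, as the submitters' processing notes also list. The mapper, the versions and the read length are not given in the sources used here. The deposited table holds raw read counts per gene entry, used here unchanged. Its further columns hold the authors' normalised values and comparisons between groups (log2 ratios, p-values, false discovery rates), none of which was used.

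The members and gene lists were chosen with earlier results of these data known. Counts were divided by median-of-ratios size factors (DESeq2 1.42.0 in R 4.3.3), which were 0.880 and 0.933 in the control libraries at 24 h and 48 h and 1.17 and 1.07 in the APAP libraries. Counts under 3 reads were set to 3 in folds. Intervals are 95% exact (Clopper-Pearson) intervals of the share of reads, those of ratios of folds conditional exact or, for large counts, a normal approximation. Entries with at least 20 reads in the compared libraries were called at 2-fold, and at 5-fold for lower entries. Per list, up to 5 genes with the largest absolute log2 fold at either time were named by rule. Serpina10, Serpinc1, Elane, Ctsg, Nr3c1, Tat, Tsc22d3, Sgk1, Camp, Ltf, Ngp and Saa1 were named in addition, after their values were seen. Some genes that the rule names are not reported here. Alternatives were TMM (edgeR 4.0.16), library totals with and without the 10 most abundant genes, the other or both control pools, a minimum of 100 reads or none, a pseudocount of 1, and stricter calls. The fold calculation was tested on simulated data. Sequences were read from GENCODE M21 and RefSeq with Biopython 1.88 and blastn 2.17.0.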

Additional observations from a re-analysis of the deposited data

Results flagged for a closer look

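For 2 members the fold of APAP over control differed between 24 h and 48 h by at least 1.5 times with an interval that leaves out 1. The Serpina3n fold at 48 h was 0.621 times its fold at 24 h (0.582 to 0.663), and the Serpina6 fold at 48 h was 2.88 times its fold at 24 h (2.18 to 3.84), in a gene that was lower at both times. The intervals cover counting error only, as each group was 1 pool, so a difference between mice in the pools cannot be told apart from a difference between times. The Serpina3n control level differed 1.961 times between the control pools, whereas the Serpina6 control level did not differ beyond its interval.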

How the results depend on the processing

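No paired analysis was possible because each group was 1 library. Of 140 alternative values of the members' and the Serpina1 sum's log2 folds, 16 had the other sign, all of them for Serpina1a, Serpina1b at 24 h, the Serpina1 sum, and Serpina3n and Serpina3g at 48 h. At least 84 of the 140 lay outside the counting-error interval of the main value, so these intervals understate the dependence on scaling and control pool. For the sum, the log2 fold at 24 h was -0.062 with TMM, 0.10 and 0.077 with library totals with and without the 10 most abundant genes, 0.038 and -0.024 against the other and both control pools, and 0.022 when scaled to summed hepatocyte markers, a scaling added after seeing the data. At 48 h it was 0.20, 0.20, -0.19, -0.13 and -0.016 in the same order, TMM left out. Serpina3g became a member past 2-fold at 24 h, 3 in all, against the other or both control pools, and at 48 h it turned to -0.365 against the other control pool; the cause was not tested. The 2 members higher at 48 h became 0 against the other or both control pools, 1 with a minimum of 100 reads and 0 with an interval beyond 2. At 5-fold 0 members were higher at either time and 0 lower at 48 h. Over all genes at 24 h, 213 were higher and 315 lower with a minimum of 100 reads, 194 and 214 with an interval beyond 2, and 128 and 77 at 5-fold; 422 and 440 were lower with library totals with and without the top genes and 1363 lower with no filter. At 48 h, 1244 were higher and 392 lower with library totals, 1239 and 393 without the top genes, 156 and 346 with a minimum of 100 reads, 1363 and 1137 with no filter, 128 and 268 with an interval beyond 2, and 75 and 97 at 5-fold. The depth limits Serpina3g and most protease genes, and the number of pools limits all folds.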
